A study of Homo sapiens with 5 samples.

Results

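The 10 genes described here, KLF2, KLF3, KLF4, KLF5, KLF6, KLF7, KLF9, KLF10, KLF11 and KLF16, code for Krüppel-like factors, and were taken by symbol from 20026 gene symbols listed once in each table. They were measured by RNA sequencing in HCT116 cells, a line from a human colorectal carcinoma. The groups were 1 library of cells given an siRNA against SP1, 1 given an siRNA against SP3, 1 given both, and 2 libraries of control cells labelled NC. siRNAs are short RNA duplexes that direct the breakdown of a matching transcript. For siRNA amounts and treatment times, no value was given in the sources used here. Levels are in FPKM, fragments per kilobase of transcript scaled to library depth, which allows for length and depth alone. A further scaling between libraries, by median ratios, changed some calls and is given below.

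Krüppel-like factors bind GC-rich and CACCC sites through zinc fingers that closely resemble those of SP1 and SP3, so the families share DNA sites. One branch (KLF2, KLF4, KLF5, KLF6 and KLF7 among these genes) is best known for activation with histone acetyltransferases. KLF3 represses through the corepressor CtBP, and KLF9, KLF10, KLF11 and KLF16 bind the corepressor SIN3A. In the intestine KLF5 marks dividing crypt cells and KLF4 marks differentiated cells.

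The windows around annotated transcript starts were searched for letters that SP1 and SP3 are known to bind. Only exact matches were sought, so variant sites and sites outside the windows were not covered. RefSeq windows on GRCh38.p14, running from 250 bases before to 50 bases after a start, were at hand for 8 of the 10 genes, 13 windows in all, with none for KLF3 and KLF10. The GC box was searched as GGGCGG and the CACCC box as CACCC, each on both strands, counting overlapping matches, and no CACCC match shared bases with a GC box. A GC box was found at 7 of 8 genes, beside 48.3% of all 27305 genes with a window. By window it was found in 8 of 13, beside 45.0% of all 35116 windows of that length. CACCC was found at 3 of 8 genes (KLF5, KLF7 and KLF11), beside 63.1% of all genes. By window it was found in 6 of 13, beside 59.9% of all windows. The KLF windows with a GC box were 69.0 to 86.0% G and C, and those without were 32.7 to 56.7%, beside a median of 58.7% over all windows. The part of base composition in these counts was not tested. KLF16 had 7 GC boxes, and so had 1 of the 2 starts of KLF11, while 98.5% of all windows had fewer. KLF2 had 6 (97.1% of windows had fewer), and KLF4 and 1 of the 4 starts of KLF7 had 4 (90.9%). The other starts of KLF7 had 0. KLF6 had 2 (73.3%), as had the other start of KLF11, and the starts of KLF5 had 0 and 2. The window of KLF9 held neither motif.

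The windows printed here are those of KLF2 and KLF7, the genes at more than 2 times the control mean in every knockdown library, of KLF5, which rose with the SP3 siRNA, of KLF16, which moved in opposite directions with the single siRNAs, and of KLF9, whose window holds neither motif. For KLF7 and KLF5, which have several starts, only the window with the most GC boxes is printed, and their other windows hold none. Each is printed 5′ to 3′ on the gene's strand, with GC boxes in capitals on either strand.
KLF2, chr19:16324576-16324875, plus strand: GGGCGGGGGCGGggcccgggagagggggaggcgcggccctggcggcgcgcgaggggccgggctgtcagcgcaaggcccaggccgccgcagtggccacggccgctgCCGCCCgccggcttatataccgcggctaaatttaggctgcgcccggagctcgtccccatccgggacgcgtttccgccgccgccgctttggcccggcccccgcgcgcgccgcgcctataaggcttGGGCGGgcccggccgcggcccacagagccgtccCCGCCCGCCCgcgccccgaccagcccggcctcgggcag
KLF7, chr2:207166807-207167106, minus strand: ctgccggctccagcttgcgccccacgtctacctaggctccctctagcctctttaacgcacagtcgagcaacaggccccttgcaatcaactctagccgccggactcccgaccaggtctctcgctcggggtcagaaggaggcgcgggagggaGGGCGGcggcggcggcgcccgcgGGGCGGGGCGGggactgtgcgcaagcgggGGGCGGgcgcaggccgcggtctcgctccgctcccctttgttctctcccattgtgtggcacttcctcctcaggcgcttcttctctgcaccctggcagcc
KLF5, chr13:73058755-73059054, plus strand: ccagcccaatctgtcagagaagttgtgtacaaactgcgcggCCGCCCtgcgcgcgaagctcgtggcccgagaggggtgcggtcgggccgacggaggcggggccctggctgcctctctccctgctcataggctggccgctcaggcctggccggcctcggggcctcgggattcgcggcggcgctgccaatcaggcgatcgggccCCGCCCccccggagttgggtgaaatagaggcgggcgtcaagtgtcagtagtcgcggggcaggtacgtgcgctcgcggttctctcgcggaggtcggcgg
KLF16, chr19:1863530-1863829, minus strand: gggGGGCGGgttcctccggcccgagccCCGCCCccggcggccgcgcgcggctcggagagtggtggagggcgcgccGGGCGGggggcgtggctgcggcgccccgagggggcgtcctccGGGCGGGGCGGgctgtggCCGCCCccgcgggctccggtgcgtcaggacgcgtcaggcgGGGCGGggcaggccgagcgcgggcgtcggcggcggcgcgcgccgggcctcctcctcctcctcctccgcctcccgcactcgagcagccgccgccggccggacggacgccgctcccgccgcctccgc
KLF9, chr9:70414608-70414907, minus strand: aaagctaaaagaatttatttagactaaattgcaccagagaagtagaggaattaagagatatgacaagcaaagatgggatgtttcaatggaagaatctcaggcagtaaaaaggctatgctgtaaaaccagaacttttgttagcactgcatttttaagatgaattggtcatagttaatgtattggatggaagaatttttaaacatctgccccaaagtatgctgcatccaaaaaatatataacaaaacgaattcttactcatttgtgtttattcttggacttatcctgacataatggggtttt
In the KLF2 window a pair of adjoining GC boxes stands at the far upstream end, and 3 boxes stand within 25 bases of the start on either side. In the printed KLF7 window all 4 boxes lie within 100 bases upstream. Which start HCT116 cells use cannot be read from these gene-level values.

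**Figure D1:**
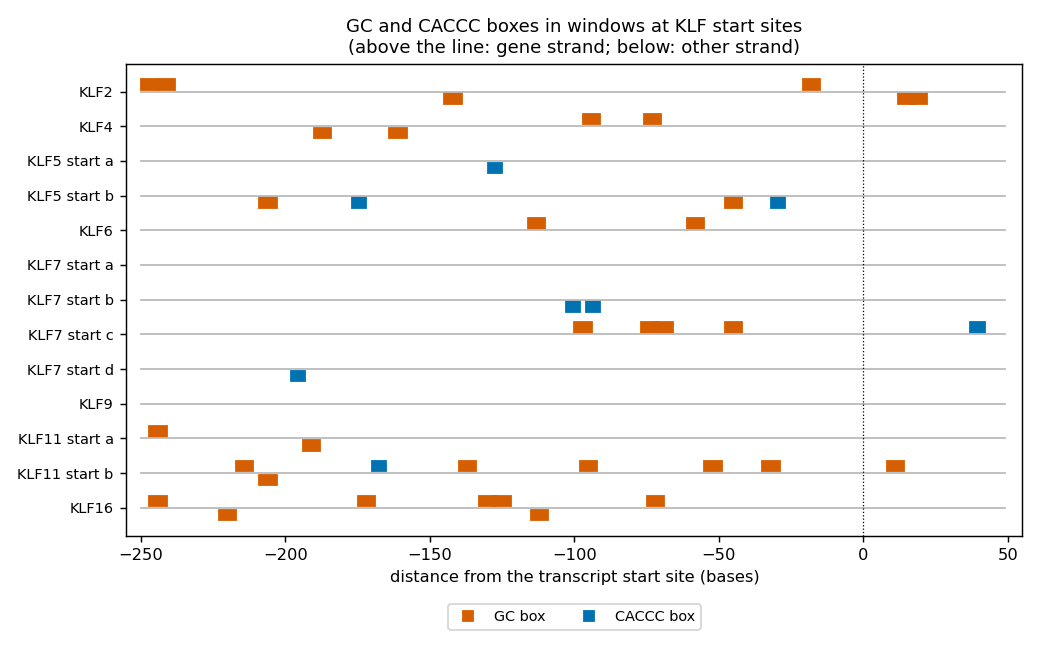
GC boxes (orange) and CACCC boxes (blue) in 13 windows at the starts of 8 KLF genes, by distance from the start in bases, with gene-strand matches above the line and other-strand matches below. KLF16 and start b of KLF11 hold 7 GC boxes each, and the KLF9 window holds neither motif.

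The libraries had 14678068 to 15970519 counted fragments. The targeted transcripts were lower where the labels say so. SP1 stood at 15.8 FPKM with the SP1 siRNA and 16.1 FPKM with both, against 36.9 ± 0.400 FPKM in controls (SD, 2 libraries). It was at 27.5 FPKM with the SP3 siRNA, 74.5% of the control mean. SP3 stood at 5.42 FPKM with the SP3 siRNA and 6.67 FPKM with both, against 13.1 ± 0.188 FPKM in the controls. EPCAM, KRT8, KRT18 and KRT19, markers of colorectal epithelium, were at 93.7 FPKM or more in every library. CDX1 was listed at 0 in all 5 and VIL1 at 0 in the knockdown libraries. KRT18 fell to 408, 284 and 153 FPKM with the SP1 siRNA, the SP3 siRNA and both, against 750 and 740 FPKM in controls. CDH1 (38.6 to 41.2 FPKM, against 48.6 and 49.1 in controls) and CDX2 (0.557 to 0.646, against 1.15 and 1.13) were lower in all 3 too. Above both controls were KRT8 and KRT19 with the SP3 siRNA and with both, and EPCAM with the SP1 siRNA. Endothelial and leukocyte cells are known for high KLF2. The 5 endothelial markers summed to 0.248 to 0.393 FPKM in the knockdown libraries and 0.396 to 0.452 FPKM in the controls. Of 7 leukocyte markers, TYROBP was listed at 0 in every knockdown library, against 2.05 and 1.49 FPKM in the controls, and LYZ was at 0.0449 to 0.258 FPKM in knockdown libraries, against 11.1 and 12.2 FPKM in controls. PTPRC, CD14 and CD3E were likewise lower in all 3 knockdown libraries. ITGAM went the other way with the SP1 siRNA, at 1.37 FPKM, and was at 0.233 FPKM with the SP3 siRNA and 0.478 FPKM with both, against 0.632 and 0.572 FPKM in the controls. The sum of these 7 markers, 58.0 to 94.4 FPKM in knockdown libraries and 75.3 to 78.4 FPKM in controls, came mostly from CD68, which ranged over 56.2 to 94.1 FPKM. The part of these markers in the KLF differences was not tested. Of 5 fibroblast markers only COL1A1 reached 1 FPKM, at 4.21 to 8.22 FPKM in knockdown libraries against 8.79 and 8.88 FPKM in controls.

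All 10 KLF genes exceeded 1 FPKM in every library. Their levels summed to 387 FPKM with the SP1 siRNA, 363 FPKM with the SP3 siRNA and 341 FPKM with both, against 275 and 295 FPKM in the controls. In the controls the order from high to low was KLF6, KLF10, KLF4, KLF5, KLF16, KLF3, KLF9, KLF2, KLF7 and KLF11, the same in both. No neighbours in that order had overlapping 95% Poisson intervals, which cover counting error alone. The 3 highest genes made up 70.7% and 72.2% of the control sums. KLF6 was first in all 5 libraries and KLF11 last. KLF2 held rank 4 with the SP1 siRNA and rank 5 in the other knockdown libraries, against rank 8 in the controls, and KLF5 held rank 2 with the SP3 siRNA, against rank 4 in the controls. With the SP3 siRNA the intervals of KLF7 and KLF3 overlapped, as did those of KLF3 and KLF9. With both siRNAs those of KLF2 and KLF16 and of KLF3 and KLF7 did.

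**Figure D2:**
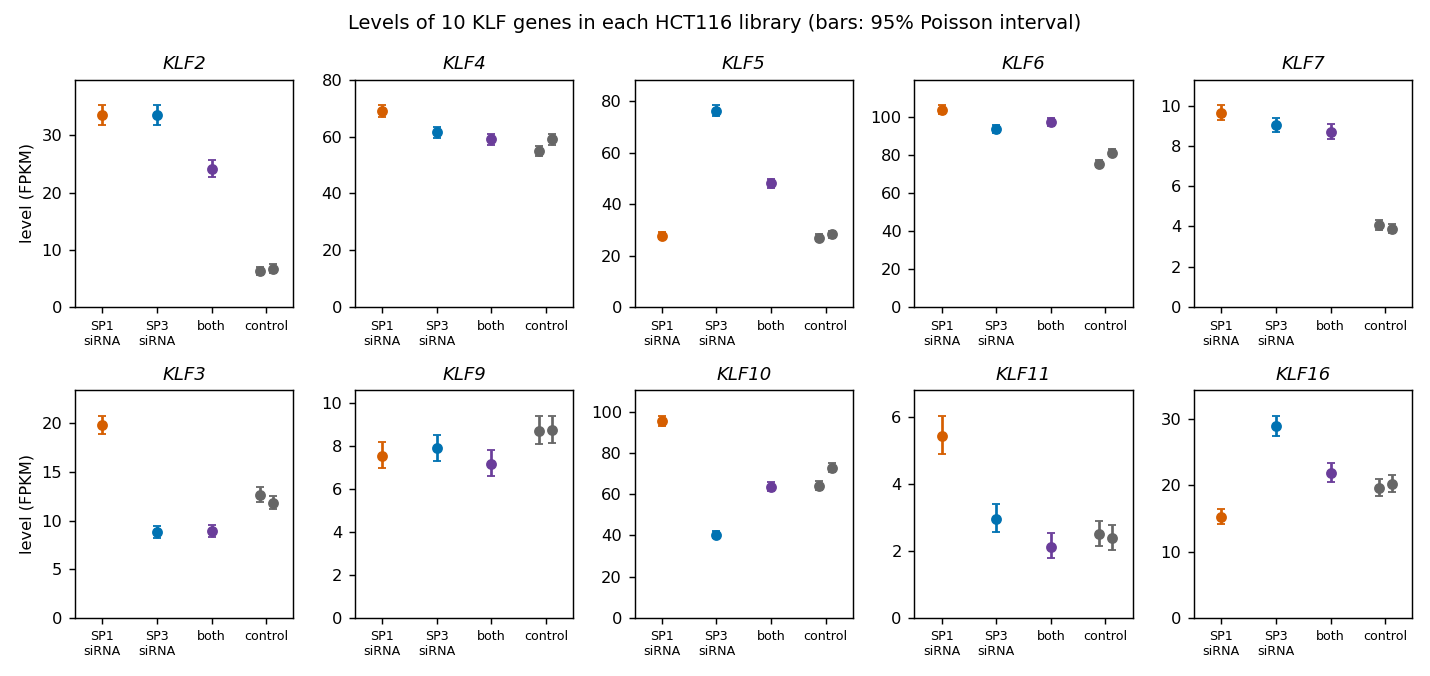
Levels in FPKM (y axes start at 0) of 10 KLF genes in the SP1 siRNA, SP3 siRNA, double knockdown and 2 control libraries, 1 point per library with its 95% Poisson interval. KLF2, KLF6 and KLF7 lie above both controls in all 3 knockdown libraries, and KLF5 does so with the SP3 siRNA and with both.

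Each knockdown was compared with the controls by limma on log2(FPKM + 1), fitted over 11725 genes with a Benjamini-Hochberg adjusted p under 0.05 as the threshold. Differences below are on that scale, with their SE. The knockdown groups have 1 library each, so the spread comes from the 2 controls. The labels do not say whether the controls came from separate cultures, so the p-values may reflect technical spread alone. Between the controls the 10 genes differed by -0.09 (KLF3) to 0.18 (KLF10), beside an SD of 0.13 across all genes tested.

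Among the activators, KLF2, which keeps endothelial and T cells quiescent, had the largest differences. It stood at 33.5 FPKM with the SP1 siRNA, 33.6 FPKM with the SP3 siRNA and 24.1 FPKM with both, against 6.27 and 6.68 FPKM in the controls. All knockdown libraries were above both controls, at 5.18-fold of the control mean with the SP1 siRNA (95% interval from reads 469 to 571%), 5.19-fold with the SP3 siRNA (471 to 572%) and 3.73-fold with both (336 to 414%). It rose by 2.21 ± 0.08 in each single knockdown (adjusted p = 1.24e-11 with the SP1 siRNA and 1.45e-11 with the SP3 siRNA) and by 1.75 ± 0.08 with both (adjusted p = 1.42e-10). The size of its difference exceeded that of 99.8% of genes tested in each single knockdown.

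KLF7, known for its part in the outgrowth of nerve fibres, was at 9.65 FPKM with the SP1 siRNA, 9.05 FPKM with the SP3 siRNA and 8.70 FPKM with both, against 4.07 and 3.88 FPKM in the controls. The 3 knockdown libraries lay close together and well above both controls. The rises were 1.10 ± 0.10, 1.01 ± 0.10 and 0.96 ± 0.10 in that order (adjusted p 1.57e-07 to 6.95e-07). KLF6, a growth-restraining factor that is often inactivated in tumours, was at 104 FPKM with the SP1 siRNA, 93.6 FPKM with the SP3 siRNA and 97.2 FPKM with both, against 75.4 and 81.2 FPKM in the controls. It was above both controls throughout, by smaller steps of 0.40 ± 0.06, 0.26 ± 0.06 and 0.31 ± 0.06, which passed the threshold (adjusted p 5.75e-05 to 0.00290). All 3 calls of KLF6 were lost with no filter on low values (adjusted p 0.0698, 0.133 and 0.102) and in an additive model described further on (0.204, 0.565 and 0.159).

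KLF5 and KLF4, the pair known from dividing and differentiated gut epithelium, behaved unlike each other. KLF5 was at 27.7 FPKM with the SP1 siRNA, 76.4 FPKM with the SP3 siRNA and 48.2 FPKM with both, against 26.9 and 28.3 FPKM in the controls. The SP1 siRNA value lay between the controls (0.0069 ± 0.07, adjusted p = 0.937, and -0.11 with median-ratio scaling), and the other knockdown values lay far above them. KLF5 rose by 1.44 ± 0.07 with the SP3 siRNA (adjusted p = 2.44e-10) and by 0.78 ± 0.07 with both (adjusted p = 1.36e-07). KLF4 was at 69.0 FPKM with the SP1 siRNA, 61.5 FPKM with the SP3 siRNA and 59.0 FPKM with both, against 54.9 and 59.1 FPKM in the controls. It passed the threshold with the SP1 siRNA (0.27 ± 0.07, adjusted p = 0.00223), a call lost under median-ratio scaling (0.15, adjusted p = 0.0913), and not with the SP3 siRNA (0.11 ± 0.07). The double knockdown value lay between the controls. With no filter on low values and in the additive model KLF4 also lost its SP1 siRNA call.

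Among the repressors, KLF3, the CtBP-binding member, moved in opposite directions. It was at 19.8 FPKM with the SP1 siRNA, 8.80 FPKM with the SP3 siRNA and 8.93 FPKM with both, against 12.7 and 11.8 FPKM in the controls. It rose by 0.65 ± 0.09 with the SP1 siRNA (adjusted p = 1.06e-05), and fell by 0.44 ± 0.09 with the SP3 siRNA (adjusted p = 0.000518) and by 0.42 ± 0.09 with both (adjusted p = 0.000728). The double knockdown thus stood beside the SP3 siRNA and not beside the SP1 siRNA. With no filter on low values KLF3 lost its calls with the SP3 siRNA and with both (limma adjusted p 0.0720 and 0.0714). In the additive model it lost all 3 (0.177, 0.0516 and 0.317).

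KLF10 and KLF11 are the TGF-beta-inducible early genes, first described as transcripts that TGF-beta induces. KLF10 was at 95.6 FPKM with the SP1 siRNA, 40.3 FPKM with the SP3 siRNA and 63.6 FPKM with both, against 64.2 and 72.9 FPKM in the controls. It rose by 0.48 ± 0.07 with the SP1 siRNA (adjusted p = 4.69e-05) and fell by 0.75 ± 0.07 with the SP3 siRNA (adjusted p = 5.05e-07), while the double knockdown difference of -0.10 ± 0.07 did not pass (adjusted p = 0.237). KLF10 had the widest gap between the controls of the 10 genes, 0.18. With no filter on low values it lost its calls with the SP1 siRNA and the SP3 siRNA (limma adjusted p 0.104 and 0.0728). In the additive model it lost the SP1 siRNA call (0.0526) and kept the SP3 siRNA call. KLF11 was at 5.44 FPKM with the SP1 siRNA, 2.96 FPKM with the SP3 siRNA and 2.13 FPKM with both, against 2.49 and 2.39 FPKM in the controls. It rose with the SP1 siRNA (0.91 ± 0.12, adjusted p = 7.29e-06), and its differences with the SP3 siRNA (0.20 ± 0.12) and with both (-0.14 ± 0.12) did not pass the threshold. KLF11 rests on the fewest reads, 134 to 359 a library.

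KLF16, a SIN3A-binding repressor also described at dopamine receptor promoters, mirrored KLF10. It was at 15.2 FPKM with the SP1 siRNA, 29.0 FPKM with the SP3 siRNA and 21.9 FPKM with both, against 19.6 and 20.3 FPKM in the controls. It fell by 0.37 ± 0.08 with the SP1 siRNA (adjusted p = 0.000596) and rose by 0.52 ± 0.08 with the SP3 siRNA (adjusted p = 2.96e-05), while 0.13 ± 0.08 with both did not pass (adjusted p = 0.156). KLF9, which thyroid hormone and glucocorticoids induce, was at 7.57 FPKM with the SP1 siRNA, 7.90 FPKM with the SP3 siRNA and 7.18 FPKM with both, against 8.73 and 8.77 FPKM in the controls. All 3 knockdown values were below both controls, at 82.1 to 90.3% of the control mean. The double knockdown passed the threshold (-0.25 ± 0.09, adjusted p = 0.0287), and the SP1 siRNA (-0.19 ± 0.09, adjusted p = 0.0931) and SP3 siRNA (-0.13 ± 0.09, adjusted p = 0.237) did not. With median-ratio scaling KLF9 passed with the SP1 siRNA too (-0.29, adjusted p = 0.00903), and its double knockdown call was lost with no filter (adjusted p = 0.0767) and in the additive model (0.199).

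**Figure D3:**
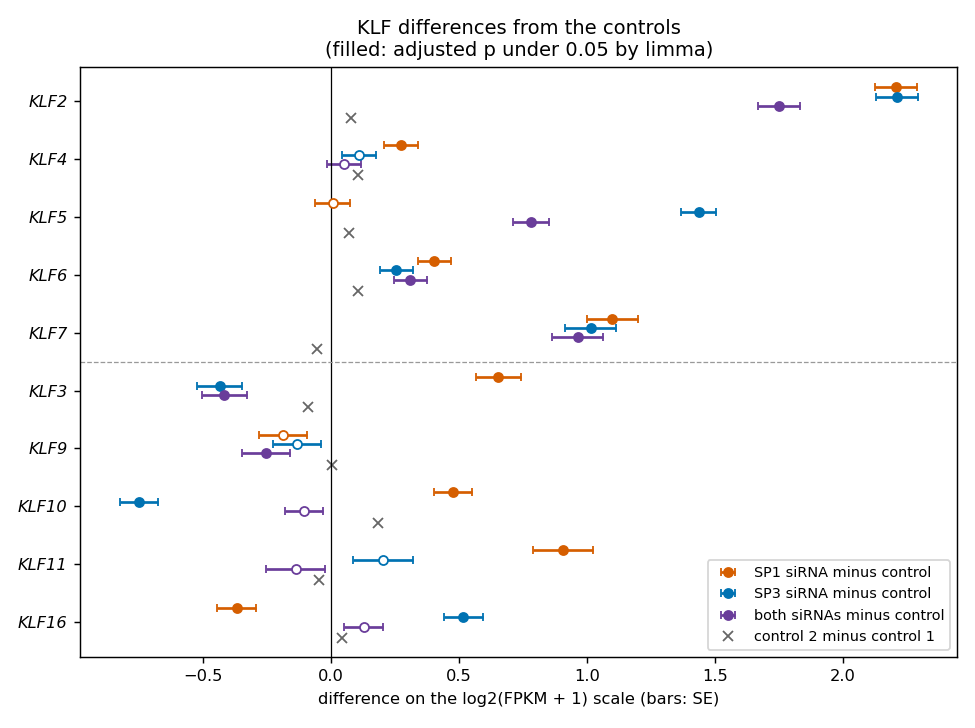
Differences from the control mean on the log2(FPKM + 1) scale with SE for 10 KLF genes, activators above the dashed line and repressors below, and control 2 minus control 1 as crosses. Filled points passed an adjusted p under 0.05, and KLF3, KLF10 and KLF16 have filled points on both sides of 0.

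In counts, 7 KLF genes rose and 1 fell with the SP1 siRNA, where 65.4% of all genes tested were called, 36.5% higher and 28.9% lower. With the SP3 siRNA 5 rose and 2 fell, where 61.6% were called, 29.6% higher and 32.0% lower. With both siRNAs 4 rose and 2 fell, where 63.0% were called, 31.8% higher and 31.1% lower. In total the shares of KLF genes called, 8, 7 and 6 of 10, stood near those of all genes. The medians of the 10 genes were 0.44, 0.23 and 0.09 in that order, and those of all genes 0.06, -0.02 and 0.01. Under median-ratio scaling the SP1 siRNA count was 6 rises and 2 falls, and the median of all genes shifted by -0.10 in that comparison. A stricter count without a test took genes that differed by 1 or more on the log2(FPKM + 1) scale from each control in 1 direction. KLF2 and KLF7 were higher by that measure with the SP1 siRNA (3.78% of all genes were), KLF2 and KLF5 with the SP3 siRNA (2.47%), and KLF2 with both (3.04%). No KLF gene was lower by it, where 3.74%, 3.87% and 3.96% of all genes were in the same order. Between the controls 0.0171% of genes differed by as much, and no KLF gene did. On that scale a low gene can exceed 2 times the control mean and still miss this count. KLF7 did so with the SP3 siRNA (2.28-fold) and with both (2.19-fold), and KLF11 with the SP1 siRNA (2.23-fold). A model in which the siRNA effects add, so that the departure of the double knockdown from the sum counts as spread, called 0 of the 10 genes with the SP1 siRNA by limma (2 at an unadjusted p under 0.05), KLF5, KLF10 and KLF16 with the SP3 siRNA, and 0 with both (3 at an unadjusted p under 0.05). KLF2 then had adjusted p of 0.242, 0.238 and 0.101 in the 3 comparisons, KLF7 had 0.171, 0.215 and 0.0760, and with no filter on low values the count was 5, 4 and 3 genes.

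The single knockdowns were also set against each other, 1 library against 1, with the spread taken from the controls. This comparison cannot tell a differing answer to the siRNAs from other variation between the 2 libraries. SP1 itself was at 74.5% of the control mean in the SP3 siRNA library. In the SP3 siRNA library 2 KLF genes were higher and 3 lower than in the SP1 siRNA library, where 62.7% of all genes were called, 26.5% higher and 36.2% lower. Median-ratio scaling turned that split from 3103 and 4244 genes into 4101 and 3251, and moved the median of all genes by 0.14. The higher ones were KLF5 (1.43 ± 0.08, adjusted p = 1.41e-09) and KLF16 (0.88 ± 0.09, adjusted p = 5.74e-07). The lower ones were KLF10 (-1.23 ± 0.09, adjusted p = 1.45e-08), KLF3 (-1.09 ± 0.10, adjusted p = 2.96e-07) and KLF11 (-0.70 ± 0.14, adjusted p = 0.000359). The differences that missed the threshold were 0.0030 ± 0.09 for KLF2, -0.08 ± 0.11 for KLF7, -0.15 ± 0.07 for KLF6, -0.16 ± 0.08 for KLF4 and 0.06 ± 0.11 for KLF9, and those of KLF4, KLF6 and KLF7 changed sign with median-ratio scaling. In the additive model KLF3 (adjusted p = 0.0577) and KLF11 (0.308) lost their calls, and with no filter KLF10 (0.0533) and KLF11 (0.0573) did.

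The double knockdown was then compared with each single knockdown. Beside the SP1 siRNA alone, both siRNAs gave higher KLF5 (0.78 ± 0.08) and KLF16 (0.50 ± 0.09), and lower KLF3 (-1.07 ± 0.10), KLF11 (-1.04 ± 0.14), KLF10 (-0.58 ± 0.09), KLF2 (-0.46 ± 0.09) and KLF4 (-0.22 ± 0.08), with adjusted p of 9.18e-07 to 0.0274. That is 2 genes higher and 5 lower, where 47.5% of all genes were called, 21.0% higher and 26.4% lower. Beside the SP3 siRNA alone, both siRNAs gave higher KLF10 (0.65 ± 0.09) and lower KLF5 (-0.65 ± 0.08), KLF2 (-0.46 ± 0.09) and KLF16 (-0.39 ± 0.09), with adjusted p of 2.75e-05 to 0.00342. That is 1 gene higher and 3 lower, where 33.0% of all genes were called, 17.9% higher and 15.1% lower. So KLF2, raised by either siRNA alone, was lower with both than with either. KLF11 was not called beside the SP3 siRNA (-0.34 ± 0.14, adjusted p = 0.0646) and was called lower with median-ratio scaling (-0.39, adjusted p = 0.0243) and without a trend in the prior (adjusted p = 0.0484). Beside the SP1 siRNA the call of KLF4 was lost with median-ratio scaling (adjusted p = 0.266) and without a trend in the prior (0.134), and with no filter 0 of the 10 genes were called in either comparison by limma (6 and 4 at an unadjusted p under 0.05).

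The interaction asked whether the siRNA effects added on the log2 scale: it subtracts the summed single differences from that of the double knockdown. A difference shared by all knockdown libraries against the controls enters it as well. For 8 of the 10 genes the double knockdown lay below the sum, and for 7 of them the interaction passed the threshold, all negative, where 39.5% of all genes were called (18.5% positive and 21.0% negative). For KLF2 the single differences summed to 4.42, the double knockdown reached 1.75, and the interaction was -2.67 ± 0.12 (adjusted p = 2.83e-09), larger in size than that of 99.9% of genes tested. For KLF7 the sum was 2.11 and the double knockdown reached 0.96 (-1.15 ± 0.15, adjusted p = 3.45e-05). For KLF11 the sum was 1.11 and the double knockdown -0.14 (-1.25 ± 0.18, adjusted p = 7.40e-05). The interactions of KLF5 (-0.66 ± 0.11), KLF3 (-0.64 ± 0.13), KLF6 (-0.35 ± 0.10) and KLF4 (-0.33 ± 0.10) passed as well, at adjusted p of 0.000190 to 0.0182. Those of KLF10 (0.17 ± 0.11), KLF9 (0.07 ± 0.14) and KLF16 (-0.02 ± 0.12) did not. The double knockdown lay between the single knockdowns for 5 genes, KLF3, KLF5, KLF6, KLF10 and KLF16. For this count, and for the 8 genes below the sum, no share over all genes was computed. The median interaction was -0.49 over the 10 genes and -0.03 over all genes tested. The calls of KLF4 and KLF6 were lost with median-ratio scaling (adjusted p = 0.0687 and 0.0547) and without a trend in the prior (0.112 and 0.0997), and with no filter 0 of the 10 passed (5 at an unadjusted p under 0.05).

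**Figure D4:**
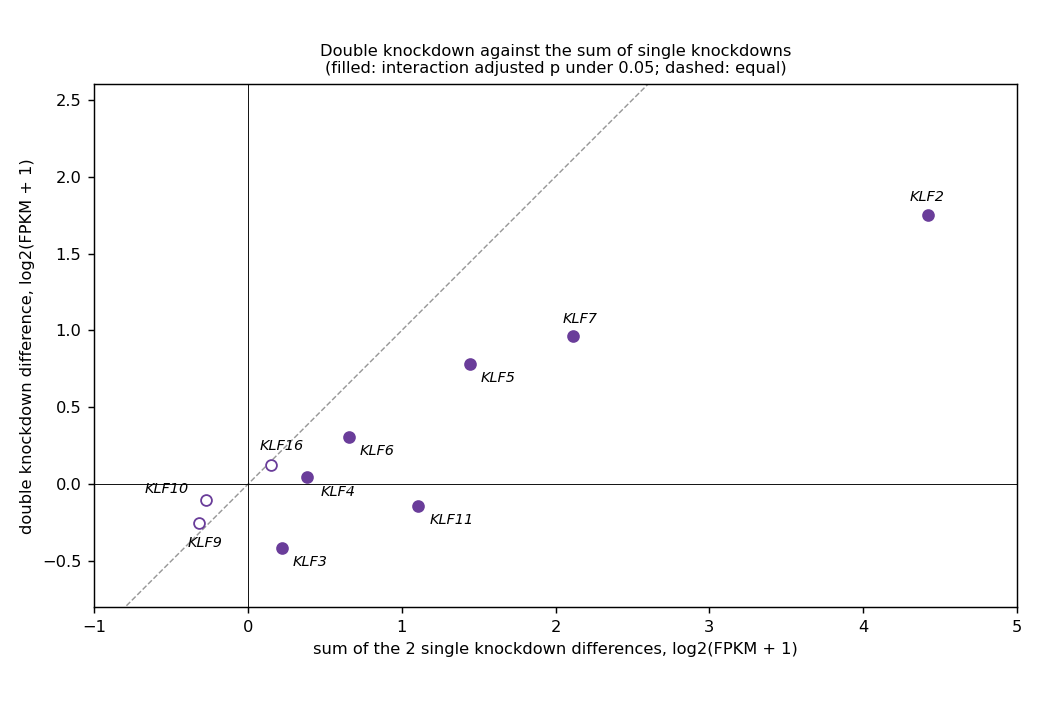
Double knockdown difference (y axis) against the sum of the single knockdown differences (x axis), both on the log2(FPKM + 1) scale, for 10 KLF genes, with the dashed line where they are equal. Filled points had an interaction adjusted p under 0.05. KLF2 lies farthest below the line, at 4.42 on the x axis and 1.75 on the y axis.

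Other genes of the KLF pathway were read from lists, whose counts stand beside 65.4%, 61.6% and 63.0% of all genes called with the SP1 siRNA, the SP3 siRNA and both. Of 14 cofactor genes, 8 rose and 2 fell with the SP1 siRNA, 2 rose and 3 fell with the SP3 siRNA, and 4 rose and 2 fell with both (medians 0.22, -0.10 and 0.05). The share called was near that of all genes with the SP1 siRNA and below it in the other comparisons. The histone deacetylase HDAC1 was at 75.7, 77.0 and 90.2 FPKM in the SP1 siRNA, SP3 siRNA and double knockdown libraries, against 32.2 and 30.4 FPKM in the controls, and rose by 1.25 ± 0.07, 1.27 ± 0.07 and 1.50 ± 0.07. HDAC2, its close relative, rose by 0.48 ± 0.08, 0.42 ± 0.08 and 0.51 ± 0.08. SIN3A, the scaffold that KLF9, KLF10, KLF11 and KLF16 bind, was at 15.1, 10.8 and 11.5 FPKM in the same libraries, against 15.1 and 14.5 FPKM in the controls, and fell with the SP3 siRNA (-0.42 ± 0.08) and with both (-0.34 ± 0.08). HDAC3 fell with the SP3 siRNA (-0.59 ± 0.06) and rose with the SP1 siRNA (0.23 ± 0.06). SAP30 of the SIN3 complex rose with both (0.29 ± 0.08) and with the SP1 siRNA (0.21 ± 0.08) and fell with the SP3 siRNA (-0.34 ± 0.08). With the SP1 siRNA RCOR1 fell (-0.64 ± 0.09) and the KLF3 partner FHL3 rose (0.80 ± 0.12). The adjusted p of these cofactor calls was 8.38e-11 to 0.0384.

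Of 16 genes that act on KLF factors from upstream, 5 rose and 4 fell with the SP1 siRNA, 3 rose and 4 fell with the SP3 siRNA, and 4 rose and 7 fell with both (medians 0.11, -0.03 and -0.05). Called were thus 9, 7 and 11 of 16, against 65.4%, 61.6% and 63.0% of all genes. MAPK7, the kinase ERK5 that induces KLF2 and KLF4 in endothelium, was at 7.81, 3.17 and 6.28 FPKM in the SP1 siRNA, SP3 siRNA and double knockdown libraries, against 7.12 and 6.78 FPKM in the controls, and fell with the SP3 siRNA (-0.93 ± 0.10). MEF2C, a factor through which that kinase acts, fell with the SP1 siRNA (-0.37 ± 0.12), the SP3 siRNA (-0.72 ± 0.12) and both (-0.62 ± 0.12), and MEF2D fell with the SP1 siRNA (-0.56 ± 0.08) and with both (-0.33 ± 0.08). FBXW7, a ubiquitin ligase component that marks KLF2 and KLF5 for breakdown, rose with the SP3 siRNA (0.80 ± 0.11) and with both (0.32 ± 0.11). The TGF-beta receptor TGFBR1 rose with the SP1 siRNA (0.38 ± 0.11), and fell with the SP3 siRNA (-0.88 ± 0.11) and with both (-0.50 ± 0.11). The ubiquitin ligase SMURF2 fell with the SP1 siRNA (-0.69 ± 0.07) and with both (-0.98 ± 0.07), while ITCH rose with the SP1 siRNA (0.43 ± 0.08), the SP3 siRNA (0.32 ± 0.08) and both (0.44 ± 0.08). BTRC fell with the SP1 siRNA (-0.45 ± 0.11), and USP3, a deubiquitinase, rose with the SP1 siRNA (0.25 ± 0.09), the SP3 siRNA (0.55 ± 0.09) and both (0.58 ± 0.09).

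Of 24 textbook targets of KLF factors, 20 reached the filter of 1 FPKM in at least 1 library. Of these, 4 rose and 10 fell with the SP1 siRNA, 4 rose and 13 fell with the SP3 siRNA, and 4 rose and 13 fell with both (medians -0.22, -0.34 and -0.47). Of all genes 28.9%, 32.0% and 31.1% fell and 36.5%, 29.6% and 31.8% rose in the same order. SMAD7, which KLF10 and KLF11 repress, was at 3.59, 4.80 and 3.20 FPKM in the SP1 siRNA, SP3 siRNA and double knockdown libraries, against 15.2 and 16.8 FPKM in the controls, all far below both controls, and fell in all 3 comparisons (-1.88, -1.55 and -2.01, each ± 0.10). PDGFA, a growth factor that KLF5 activates, fell in all 3 as well (-1.15, -0.78 and -0.74, each ± 0.07), and so did EGFR, the epidermal growth factor receptor (-0.90, -1.82 and -2.14, each ± 0.10). The inhibitor CDKN1A, activated by KLF4 and KLF6, fell to 200.2 FPKM with the SP1 siRNA, 197.7 FPKM with the SP3 siRNA and 92.3 FPKM with both, against 343 and 329 FPKM in the controls (adjusted p 2.61e-12 to 2.62e-08). CDKN1C, another inhibitor, fell with the SP1 siRNA (-0.82 ± 0.07), and rose with the SP3 siRNA (1.55 ± 0.07) and with both (0.90 ± 0.07). CCND1, the cyclin that KLF5 activates, fell to 65.8 FPKM with the SP1 siRNA and 77.5 FPKM with both, against 359 and 358 FPKM in the controls (adjusted p = 1.24e-13 and 4.78e-13). With the SP3 siRNA CCND1 was at 281 FPKM, also below both controls. CCNE1, another cyclin, rose to 78.2 FPKM with the SP3 siRNA and 55.8 FPKM with both, against 15.5 and 17.1 FPKM in the controls (adjusted p = 9.11e-12 and 8.93e-11). With the SP1 siRNA CCNE1 was at 26.8 FPKM, also above both controls. THBS1, a matrix protein, fell with the SP1 siRNA (-2.33 ± 0.10), the SP3 siRNA (-1.64 ± 0.10) and both (-2.29 ± 0.10). Several of these genes are also known targets of SP1.

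KLF2, KLF4, KLF6 and KLF10 are themselves induced within minutes to hours by growth factors and stress, so immediate early genes were read beside them. Of 24 measured, 8 rose and 11 fell with the SP1 siRNA, 16 rose and 5 fell with the SP3 siRNA, and 11 rose and 7 fell with both (medians -0.05, 0.47 and 0.17), beside 65.4%, 61.6% and 63.0% of all genes called. IER5 rose with the SP1 siRNA (0.51 ± 0.06), the SP3 siRNA (1.48 ± 0.06) and both (1.12 ± 0.06). DUSP4 fell with the SP1 siRNA (-0.37 ± 0.08), and rose with the SP3 siRNA (1.05 ± 0.08) and with both (0.33 ± 0.08). FOS rose with the SP3 siRNA (1.16 ± 0.12) and with both (2.04 ± 0.12), as did EGR1 (1.32 ± 0.10 and 1.76 ± 0.10). FOSL1 rose with the SP1 siRNA (1.06 ± 0.06) and with the SP3 siRNA (0.46 ± 0.06). ZFP36 fell in all 3 comparisons (-0.91, -0.44 and -0.61, each ± 0.06). CYR61 and CTGF fell with the SP1 siRNA (-1.71 ± 0.11 and -1.91 ± 0.14) and with both (-0.27 ± 0.11 and -0.60 ± 0.14), and rose with the SP3 siRNA (0.89 ± 0.11 and 0.74 ± 0.14). MYC rose with the SP1 siRNA (0.61 ± 0.06), and fell with the SP3 siRNA (-0.99 ± 0.06) and with both (-0.88 ± 0.06). DUSP5 fell with the SP3 siRNA (-0.93 ± 0.06) and with both (-0.65 ± 0.06). The part of the immediate early response in the KLF differences was not tested.

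The genes whose values over the 5 libraries came nearest to each KLF gene were sought among 7117 genes that averaged 5 FPKM or more. Distance was Euclidean over 4 values on the log2(FPKM + 1) scale, the 3 differences from the control mean and control 2 minus control 1. KLF6 lay nearest to PTPN18 (distance 0.0285) and TSC2 (0.0528), KLF4 to LAMC1 (0.0441) and YPEL5 (0.0678), and KLF7 to MAPK6 (0.0626) and HOXB7 (0.0944). KLF9 lay nearest to DSE (0.0657) and UNC5B (0.0691), KLF3 to SMARCA4 (0.0733) and ZDHHC7 (0.0846), and KLF16 to CDK11A (0.0900) and MTF2 (0.0964). KLF10 had UBTD2 (0.134) and TINAGL1 (0.178), KLF11 had EFHD2 (0.154) and RAB13 (0.155), and KLF5 had GPAT3 (0.158) and ZFPL1 (0.215). KLF2 had no neighbour as near, with PRDX4 at 0.628 and AMN1 at 0.676. Both of these neighbours stayed higher than KLF2 in the double knockdown, at 2.28 for PRDX4 and 2.41 for AMN1.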

How the data were processed

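Per the file headers, the authors' tables hold FPKM values by gene symbol, 1 file for each library. The submitters' processing notes name HTSeq 0.9.1, Cufflinks 2.2.1, HISAT2 2.0.5 and Trimmomatic 0.36 without roles. The genome build, annotation, strand handling and read filters were not given in the sources used here. Of 20030 rows, 20026 symbols listed once were kept.

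Whole reads were recovered from the FPKM steps. Relative depth came from genes of few reads, absolute depth from 50 genes with 1 GENCODE transcript, and each gene's length was the smallest to yield whole numbers of reads everywhere (tolerance 0.02 reads, 17098 of 17121 genes). These reads are lower limits and served for depth and for 95% intervals (Poisson, or exact binomial for ratios to the 2 controls), which cover counting error alone.

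Differences were tested with limma 3.58.1 under R 4.3.3, with a mean-level trend in its prior, on log2(FPKM + 1). The model had 1 mean per group over 5 libraries, and genes of at least 1 FPKM in at least 1 library entered it. The controls gave the 1 residual degree of freedom (13.95 prior degrees of freedom at the median), so knockdown libraries were assumed to vary like them. The script was tested on simulated data in which all libraries had the same spread. That test cannot check whether the knockdown libraries vary like the controls. The log scale understates changes of low genes. The 10 genes and the lists were chosen with earlier results of these data known, so their counts are not independent evidence. Named were all 10 genes, SP1, SP3, other KLF genes, up to 4 genes per list and comparison with the controls by smallest p, and the 2 nearest genes per KLF gene. List genes given with values beyond these are level checks. Alternatives were a pseudocount of 0.1, no filter, a mean of at least 5 FPKM, median-ratio scaling, an additive model, a prior without a trend, and leaving out either control.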

Additional observations from a re-analysis of the deposited data

Results flagged for a closer look

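For 7 KLF genes the double knockdown difference departed from the sum of the single ones. The limma interaction passed an adjusted p under 0.05 in a design with 1 library per knockdown group. The values on the log2(FPKM + 1) scale were -2.67 for KLF2, -1.25 for KLF11, -1.15 for KLF7, -0.66 for KLF5, -0.64 for KLF3, -0.35 for KLF6 and -0.33 for KLF4, where 39.5% of all genes tested passed. With no filter on low values 0 of the 10 genes passed by limma (5 at an unadjusted p under 0.05). KLF4 and KLF6 also lost their calls with median-ratio scaling and without a trend in the prior. In the double knockdown SP1 was at 43.6% and SP3 at 50.7% of the control mean. In the single knockdowns SP1 was at 42.9% and SP3 at 41.3% of it. The part of the smaller SP3 knockdown in the interactions was not tested. A difference shared by all knockdown libraries against the controls enters the interaction too, and this design cannot tell it from a changed siRNA effect. For the 5 leukocyte markers tested the interaction ranged from -0.30 to 3.22, with a median of 1.07. The part of such a shared difference in the KLF interactions was not tested.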

How the results depend on the processing

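Across all genes, counts of calls in the order SP1 siRNA, SP3 siRNA and both against the controls, both against the SP1 siRNA, both against the SP3 siRNA, SP3 siRNA against SP1 siRNA, and interaction were 7665, 7222, 7383, 5564, 3868, 7347 and 4629. With no filter they were 4179, 2099, 3154, 0, 0, 2635 and 0 by limma (6061, 4439 and 5375 at an unadjusted p under 0.05 for the counts of 0), and the KLF counts were 5, 4, 3, 0, 0, 3 and 0 of 10. In the additive model, which has no interaction, they were 898, 1802, 1968, 1802, 898 and 1274, and the KLF counts were 0, 3, 0, 3, 0 and 3 by limma (2, 3 and 2 at an unadjusted p under 0.05 for the counts of 0). A mean of at least 5 FPKM gave 5108 for the SP1 siRNA against the controls, fewer genes being tested, and left KLF11 out. The causes were not tested otherwise.

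With median-ratio scaling the splits of higher and lower calls became 3492 and 4206 for the SP1 siRNA (4282 and 3383 as deposited), 3197 and 2440 for both against the SP1 siRNA (2467 and 3097), and 1689 and 2353 for both against the SP3 siRNA (2102 and 1766). The majority also turned for the SP3 siRNA (3883 and 3515, from 3465 and 3757), both (3634 and 3838, from 3734 and 3649) and the interaction (2487 and 2226, from 2171 and 2458). Signs that changed under that scaling, none of them called, were KLF5 with the SP1 siRNA (-0.11), KLF6 (0.0051) and KLF9 (0.021) for both against the SP1 siRNA, KLF3 (-0.044) and KLF6 (-0.015) for both against the SP3 siRNA, KLF4 (0.0025), KLF6 (0.020) and KLF7 (0.069) between the single knockdowns, and KLF16 (0.025) for the interaction. The additive model changed the sign of KLF5 with the SP1 siRNA (-0.28), of KLF4 (-0.033) and KLF11 (-0.33) with the SP3 siRNA, and of KLF11 with both (0.040). By its construction it gives the double against a single knockdown the other siRNA's effect, which changed the sign of KLF2 (1.07), KLF6 (0.11) and KLF7 (0.52) against the SP1 siRNA and of KLF2 (1.06), KLF4 (0.13), KLF7 (0.61) and KLF11 (0.37) against the SP3 siRNA. With a pseudocount of 0.1 all 70 differences of the KLF genes kept their sign and their side of the threshold. Without either control no test is possible in the model with 1 mean per group, since no residual degrees of freedom remain, and differences move by less than 1 SD of 2 controls by arithmetic. KLF5 with the SP1 siRNA (-0.028 without replicate 1, 0.042 without replicate 2) and KLF4 with both (-0.0017 and 0.10), which lie between the controls, changed sign, as did the KLF16 interaction (0.00081 and -0.044), and none of these was called. No paired analysis was possible because the knockdown groups hold 1 library each and carry no replicate number. KLF11, at 134 to 359 reads a library, is the gene that depth limits most.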

Other observations

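The other KLF genes listed are KLF1, KLF8, KLF12, KLF13, KLF14, KLF15, KLF17 and KLF18, of which KLF12, KLF13 and KLF15 reached 1 FPKM in at least 1 library. KLF15 reached it with the SP1 siRNA alone, at 1.14 FPKM, against 0.725 and 0.607 FPKM in the controls. It rose there (0.37 ± 0.14), on 51 reads, and did not pass with the SP3 siRNA (-0.15 ± 0.14) or with both (-0.07 ± 0.14). KLF13, another SIN3A-binding repressor, was at 10.5 FPKM with the SP1 siRNA, 24.7 FPKM with the SP3 siRNA and 14.8 FPKM with both, against 13.8 and 13.9 FPKM in the controls. It fell with the SP1 siRNA (-0.37 ± 0.08, limma adjusted p = 0.00102) and rose with the SP3 siRNA (0.79 ± 0.08, adjusted p = 7.24e-07), the same directions as KLF16, and did not pass with both (0.08 ± 0.08). KLF12, a CtBP-binding repressor like KLF3, was at 1.56, 1.36 and 1.45 FPKM in the same libraries, against 2.75 and 2.74 FPKM in the controls, and fell in all 3 comparisons (-0.55, -0.67 and -0.62, each ± 0.12). KLF8, the third of that branch, stayed below 1 FPKM and was not tested, at 0.654, 0.417 and 0.592 FPKM in the knockdown libraries, against 0.172 and 0.225 FPKM in the controls, with 69 to 104 and 28 to 37 reads.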
